A study of Mus musculus with 6 samples.

Results

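The genes described here are 44 genes of skeletal muscle fibres, taken by their symbols from the 34590 gene symbols of the count table: 14 fast fibre isoforms, 7 slow fibre isoforms, 1 developmental myosin, 9 sarcomere and Z-disc genes shared by fibre types, 4 genes of excitation-contraction coupling, 5 of muscle metabolism and 4 myogenic transcription factors. All 44 symbols were found. RNA-seq was done on 3 pairs of contralateral mammary glands (gland number 4) of 3 WT host mice, whose fat pads had been cleared of their own epithelium. The graft was WT.EGFP+ on the left and Adamts18-/-.EGFP+ on the right in every host. Genotype and body side therefore cannot be told apart. Per the study, the 3 pairs came from separate experiments and used 3 different donors. Differences between hosts therefore cannot be told apart from those between donors or experiments. Both epithelia came from donors with an EGFP transgene, and the stroma, fat and vessels around each graft belonged to the WT host. The age of the hosts at harvest is not given in the sources used here. The labels name sorted GFP-positive mammary epithelial cells as the source of RNA, whereas the study describes profiled glands. The libraries are called glands below and are named by genotype and host (mouse 1, 2 or 3).

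Skeletal muscle is built of fibres that contract fast or slowly. Each fibre type uses its own isoform of the motor protein myosin and of the light chains, troponins and calcium pumps that work with it, from separate genes. In the mouse, Myh4 encodes the myosin of the fastest fibres (type IIb), Myh1 and Myh2 those of the other fast types (IIx and IIa), and Myh7 that of slow fibres, which the heart also uses. They are not known as products of mammary epithelium, whose myoepithelial cells contract with smooth muscle isoforms from other genes.

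The depth was between 53875123 and 71595924 counts per gland, and 3 counts, the limit that a count of 0 allows, stood for 0.0430 to 0.0574 CPM, the count scaled to library size. Counting intervals and these limits cover counting error only. The libraries labelled Adamts18-/- held Adamts18 at 2.75, 4.87 and 3.29 CPM against 3.61, 9.92 and 6.80 CPM in the WT ones, where 3 values in a row are always those of mice 1, 2 and 3. All listed markers of adipocytes, fibroblasts, endothelium, Schwann cells, leukocytes and erythroid cells stood above 3 counts in every gland. Of 7 cardiac muscle genes 3 did, and of 5 brown adipocyte genes 3. Summed over 9 adipocyte genes the level was 8307 to 19304 CPM and over 8 fibroblast genes 8169 to 11074 CPM, against 1454 to 2734 CPM over 24 pan-epithelial genes. In bulk samples such as these, fewer cells of a type and less RNA per cell cannot be told apart.

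The 3 adult fast myosin genes stand next to each other on mouse chromosome 11 in the order Myh2, Myh1, Myh4, and the results below turn on how differently they were represented in the 6 glands. Their 250 bases before the transcription start are therefore shown, from RefSeq (GRCm38.p6), all on the plus strand at chr11:67237562-67237811 for Myh4, chr11:67199852-67200101 for Myh1 and chr11:67170777-67171026 for Myh2. Capitals mark matches to the E-box CANNTG, the motif that myogenic factors of the MyoD family bind, and to the MEF2 motif, searched on both strands.
Myh4: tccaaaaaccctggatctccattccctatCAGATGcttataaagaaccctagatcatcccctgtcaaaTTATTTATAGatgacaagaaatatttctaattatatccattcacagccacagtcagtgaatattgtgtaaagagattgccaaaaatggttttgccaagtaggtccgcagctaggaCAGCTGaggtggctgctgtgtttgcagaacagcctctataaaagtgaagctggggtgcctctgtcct
Myh1: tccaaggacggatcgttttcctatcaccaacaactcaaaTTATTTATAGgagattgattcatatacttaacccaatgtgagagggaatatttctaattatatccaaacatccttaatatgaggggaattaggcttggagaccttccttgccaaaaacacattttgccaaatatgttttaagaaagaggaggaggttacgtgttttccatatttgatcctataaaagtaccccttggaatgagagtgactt
Myh2: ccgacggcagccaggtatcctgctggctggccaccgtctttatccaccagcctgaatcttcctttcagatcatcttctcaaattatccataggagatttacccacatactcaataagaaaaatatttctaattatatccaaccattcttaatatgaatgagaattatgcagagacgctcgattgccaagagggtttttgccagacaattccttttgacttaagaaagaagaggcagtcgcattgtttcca

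The Myh4 window held 2 E-boxes, 1 MEF2 match and 1 match to the CArG motif, the window of Myh1 held 1 MEF2 match and 0 E-boxes, and that of Myh2 held neither. Promoter windows were used for 31 of the 44 genes (38 windows, since some genes have several starts). Chromosome 18, which holds Myot, was left out for the muscle genes but not for the windows of all genes. An E-box was found in 33 of the 38 windows (86.8%), against 66.2% of the 32851 promoter windows of all genes. MEF2 matches were found in 6 of the 38 (15.8%), against 2.92% of all windows, CArG matches in 3 (7.89%, against 1.47%) and TATAAA in 4 (10.5%, against 7.59%). Matches of different motifs were counted separately where they overlapped. A match is a description of the letters in the window.

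The muscle genes were sharply unequal among the glands. Summed over the 44 genes, the level was 575, 1545 and 4815 CPM in WT glands and 18395, 18822 and 3286 CPM in the Adamts18-/- glands. They took 0.0560%, 0.156% and 0.501% of all counts in WT glands and 1.79%, 1.80% and 0.344% in Adamts18-/- glands. The Adamts18-/- gland was thus 32.0-fold higher than its WT partner in mouse 1 and 12.2-fold higher in mouse 2, and stood at 0.682 of its partner in mouse 3. The groups overlapped, since the WT gland of mouse 3 was above the Adamts18-/- gland of the same mouse.

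**Figure D1:**
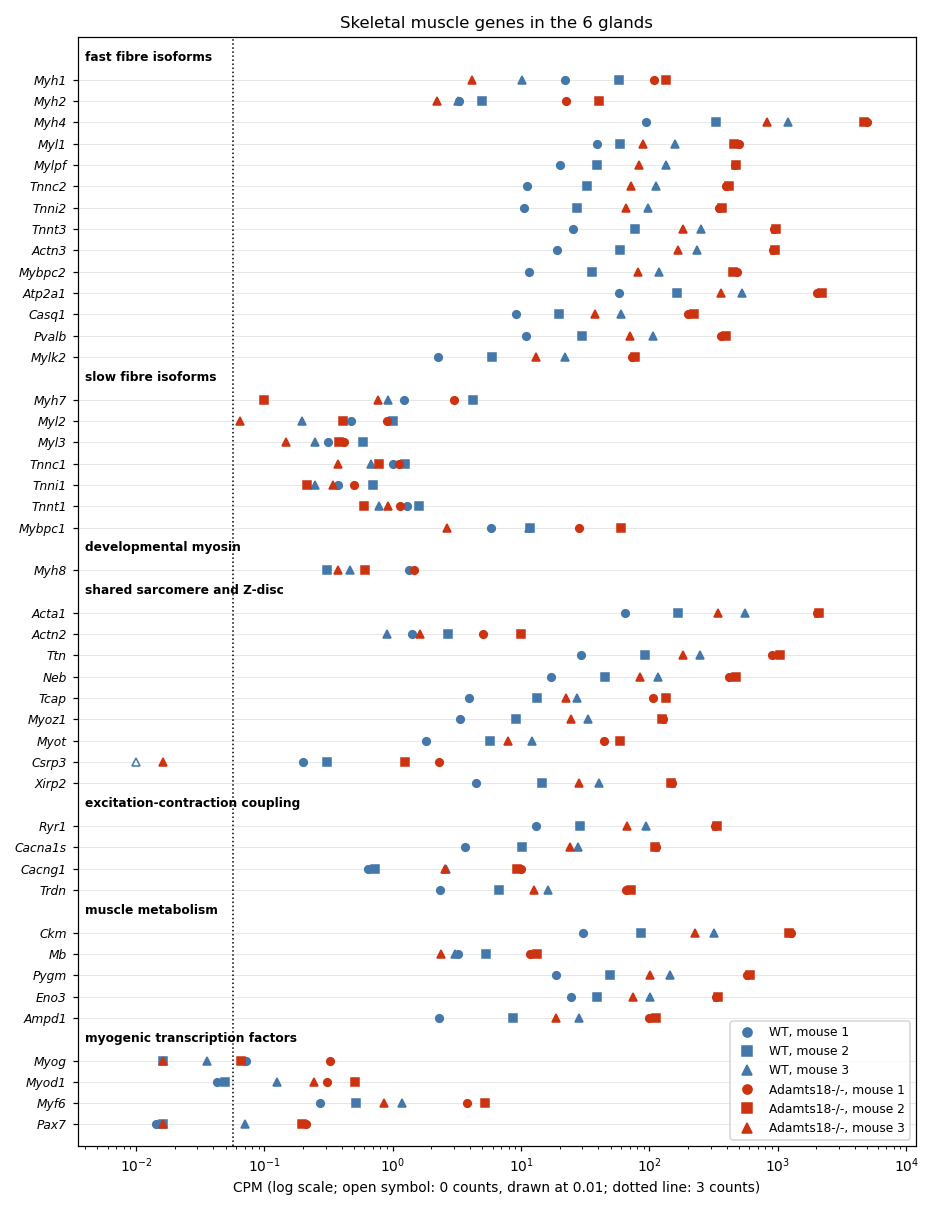
CPM (log axis) of each of the 44 genes in each gland, by role; colour gives the genotype, shape the host mouse, the dotted line 3 counts in the shallowest library, and the open symbol a count of 0. For most fast isoforms the Adamts18-/- glands of mice 1 and 2 lie far to the right of the other 4 glands, while the slow isoforms other than Mybpc1 lie far to the left with the genotypes mixed.

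The comparison of genotypes asked which genes differed with the grafted epithelium. The median log2 fold change (Adamts18-/- over WT) was 2.75 over the 42 muscle genes tested, 36 of them positive and 6 negative, beside a median of 0.00065 over all 17345 genes tested. Myog and Pax7 did not pass the filter on low counts. At the thresholds of the study, a fold change over 1.25 with an unadjusted p under 0.05 in edgeR's quasi-likelihood test, 4 of the 42 were higher, namely Actn2, Cacng1, Csrp3 and Myod1, beside 1.17% of all genes tested. None of the 42 was lower, beside 1.84% of all genes with a fold change under 0.8. After adjustment over all genes, 0 of the 42 had an adjusted p under 0.05, beside 0% of all genes, and the smallest adjusted p among them was 0.987 in edgeR. An unadjusted p under 0.05 was reached by 670 of all genes and 4 of the 42. By adjusted p, DESeq2 called 71 genes, among them Actn2 and Cacng1 (0.409% of all genes), and limma-voom 0. The count of higher genes depended on the fit. It was 31 of the 42 in DESeq2 (1.96% of all genes), 25 in edgeR without the mouse as a block (1.26%) and 35 with libraries scaled to the pan-epithelial genes (11.5%, and 2.02% by adjusted p, which all 35 passed). In limma-voom it was 13 (1.99% of all genes), and 35 with pan-epithelial scaling (12.3%, and 2.53% by adjusted p, which all 35 passed). Both pan-epithelial fits share that scaling, under which the median log2 fold change of all genes was 0.446. In edgeR it also left 1 spread for all genes at a given level, so differences in spread between genes did not enter the calls. The count of higher genes was 12 of the 44 without the filter on low counts (1.43%) and 2 of the 37 genes with at least 10 counts in every library (1.11%). It was 1, Actn2, when each gene was fitted on its own spread, beside 0.582% of all genes with TMM scaling and 2.62% with pan-epithelial scaling.

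The direction in the 3 hosts was shared by most of the muscle genes. Of the 42 tested, 33 were higher in the Adamts18-/- gland of mice 1 and 2 and lower in that of mouse 3, beside 13.1% of all genes tested. The stricter pattern, more than 4-fold higher in mice 1 and 2 and lower in mouse 3, was met by 30 of the 42, beside 0.946% of all genes. Both patterns follow the summed level of the muscle genes, whose folds in mice 1, 2 and 3 were 32.0, 12.2 and 0.682. For these patterns, the comparison with all genes is therefore a description and not a test. Genes that vary together over the same glands are also not separate observations. Only 3 of the 42 (Actn2, Csrp3 and Myod1) were higher in the Adamts18-/- gland of all 3 mice, beside 10.8% of all genes. The groups did not overlap for 1, Myod1, beside 2.31% of all genes.

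**Figure D2:**
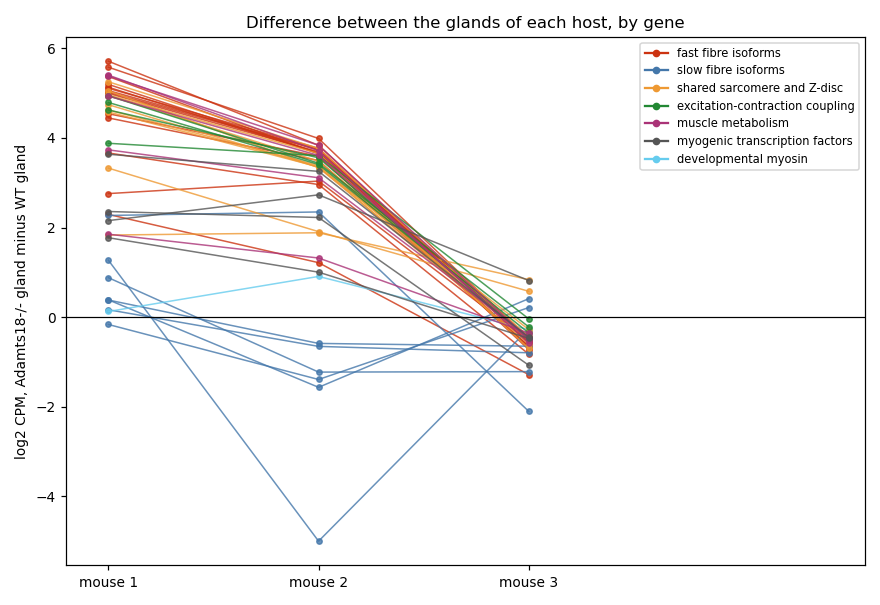
Difference in log2 CPM between the Adamts18-/- and the WT gland of each host (vertical axis), 1 line per gene, coloured by role, over mice 1 to 3 (horizontal axis; the lines join values of 1 gene and mice have no order). The fast isoforms lie between 2.29 and 5.71 in mouse 1 and between 1.22 and 3.99 in mouse 2, and all 14 lie below 0 in mouse 3.

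Leaving out mouse 3 changed the calls. In the 2 remaining pairs, 36 of the 43 muscle genes tested were higher at the thresholds of the study, beside 3.34% of all genes, and 32 had an adjusted p under 0.05 in edgeR, beside 1.54% of all genes. That fit had 1 residual degree of freedom per gene, against 4.13 prior degrees of freedom borrowed from all genes. Its calls thus rest mostly on the shared spread. Without mouse 1 the count of higher genes was 3 of 42, beside 1.03% of all genes, and Myl2 was lower, beside 2.73%. Without mouse 2 it was 2 of 42, beside 1.82% of all genes. No value in the labels sets mouse 3 apart from the others. Summed over 9 leukocyte genes, its Adamts18-/- gland had 1432 CPM against 749 CPM in its WT gland, while the other 4 glands had 432 to 668 CPM, and the part of this in the result was not tested.

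Myh4, the myosin heavy chain of type IIb fibres, took the most reads of the 44 genes. It stood at 94.7, 328 and 1197 CPM in WT glands and at 4972, 4686 and 821 CPM in the Adamts18-/- glands. The Adamts18-/- glands of mice 1 and 2 were above every WT gland, and that of mouse 3 was below its WT partner. The log2 fold change was 3.30 with a standard error (SE) of 1.57, and the test did not pass (edgeR unadjusted p = 0.0935). It was 1.64 without mouse 1 (edgeR unadjusted p = 0.292) and 2.58 without mouse 2 (edgeR unadjusted p = 0.352). Without mouse 3, the host with the opposite direction, it was 4.78 with an SE of 0.54 (edgeR unadjusted p = 2.55e-04, adjusted p = 0.0226). That SE and p rest on 1 residual degree of freedom and on spread borrowed from other genes.

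Myh1, the IIx myosin, was at 21.9, 57.7 and 10.1 CPM in WT glands and at 108, 134 and 4.13 CPM in Adamts18-/- glands. Here the lowest of the 6 glands was the Adamts18-/- gland of mouse 3, and the WT gland of mouse 3, which was the highest WT gland for Myh4, was the lowest WT gland. The log2 fold change was 0.85 (SE 0.74, edgeR unadjusted p = 0.308). Myh2, the IIa myosin, was at 3.27, 4.93 and 3.25 CPM in WT glands and at 22.3, 40.7 and 2.23 CPM in Adamts18-/- glands, with a log2 fold change of 1.91 (SE 0.83, edgeR unadjusted p = 0.0748). Both genes gave the order of glands that only Mb, which encodes the oxygen store myoglobin, shared among the 44.

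Myh7, the slow myosin, was at 1.23, 4.21 and 0.924 CPM in WT glands and at 3.02, 0.0990 and 0.765 CPM in Adamts18-/- glands. Its highest and lowest values were the glands of mouse 2, with 258 counts in the WT and 6 in the Adamts18-/- gland, and the log2 fold change was -0.93 (SE 1.39, edgeR unadjusted p = 0.536). Myh8, the perinatal myosin of developing muscle, was at 0.310 to 1.35 CPM in WT glands and at 0.374 to 1.47 CPM in Adamts18-/- glands. Mouse 1 had the highest Myh8 level in both groups, which overlapped.

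As a share of the reads of these 5 myosin genes, Myh4 made up 77.3% (95% exact binomial interval 76.4 to 78.2) in the WT gland of mouse 1, 83.0% (82.5 to 83.5) in that of mouse 2 and 98.8% (98.7 to 98.9) in that of mouse 3. In Adamts18-/- glands its share was 97.4%, 96.4% and 99.1%. Myh1 made up 17.9%, 14.6% and 0.836% in WT glands and 2.11%, 2.76% and 0.499% in Adamts18-/- glands. The makeup thus differed between hosts as well as between glands of 1 host: both glands of mouse 3 were almost wholly Myh4, and in each host the WT gland held a larger share of Myh1 than its partner. Such a share does not depend on how libraries are scaled. Since 13.5% of the 85-base windows of the Myh1 transcript, 13.1% of Myh2, 9.88% of Myh8 and 6.71% of Myh4 recur in a neighbouring myosin gene, and 13.6% of Myh7 in the cardiac gene Myh6, some reads could have been assigned to either gene or dropped.

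**Figure D3:**
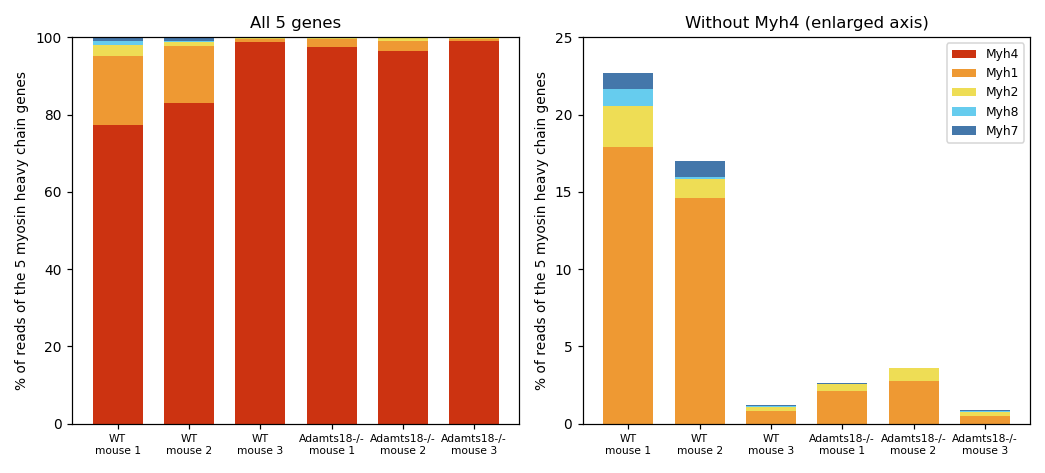
Percent of the summed reads of Myh4, Myh1, Myh2, Myh8 and Myh7 taken by each gene, by gland (bars), with all 5 genes on the left and the same bars without Myh4 on an enlarged axis on the right. In WT glands Myh1 takes 17.9% (mouse 1) and 14.6% (mouse 2), against at most 2.76% in the other 4 glands.

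Most fast isoforms that work beside the myosin heavy chains moved with Myh4. Atp2a1, the calcium pump of fast fibres, was at 58.2, 163 and 522 CPM in WT glands and at 2010, 2220 and 362 CPM in Adamts18-/- glands. Tnnt3, the fast troponin T that ties the troponin complex to the thin filament, was at 25.5, 76.7 and 253 CPM in WT glands and at 938, 972 and 184 CPM in Adamts18-/- glands. Actn3, the fast-fibre alpha-actinin of the Z-disc, was at 19.1, 59.5 and 234 CPM in WT glands and at 915, 944 and 167 CPM in Adamts18-/- glands. In all 3 genes the Adamts18-/- glands of mice 1 and 2 stood above every other gland, and the highest WT gland was that of mouse 3.

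The other fast isoforms were the light chains Myl1 and Mylpf, troponins Tnnc2 and Tnni2, the filament protein Mybpc2, the calcium binders Casq1 and Pvalb and the light chain kinase Mylk2. None of the 14 fast genes passed the thresholds, beside 1.17% of all genes tested called higher and 1.84% lower. Their edgeR unadjusted p lay between 0.0748 and 0.308 and their log2 fold changes between 0.85 and 3.34. Their median difference in log2 CPM was 5.04 in mouse 1, 3.66 in mouse 2 and -0.57 in mouse 3. The ratio of these genes to Myh4 varied little between glands for many of them. For every 100 Myh4 reads there were 18.1 to 20.3 Actn3 reads over the 6 glands, a 1.12-fold range. For Mybpc2 the range was 1.29-fold, for Tnnt3 1.43-fold, for Tnnc2 1.49-fold and for Atp2a1 1.52-fold, while for Myl1 it was 4.24-fold and for Myh1 46.0-fold. In Myl1, 13.7% of the windows recur in the pseudogene Mylf-ps.

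The slow partners did not share that pattern. Tnni1, the slow troponin I, was at 0.373, 0.701 and 0.249 CPM in WT glands and at 0.497, 0.215 and 0.342 CPM in Adamts18-/- glands, and the groups overlapped. Tnnt1, the slow troponin T, was at 1.29, 1.61 and 0.782 CPM in WT glands and at 1.15, 0.594 and 0.911 CPM in Adamts18-/- glands, which also overlapped. Myl2, Myl3 and Tnnc1, which slow fibres share with the heart, were at 0.0651 to 1.24 CPM over all glands, so that few reads stand behind each value (4 counts for Myl2 in the Adamts18-/- gland of mouse 3). None of the 7 slow genes passed the thresholds, beside 1.17% of all genes tested called higher and 1.84% lower. Their log2 fold changes lay between -0.93 and 1.10, with a median of -0.43. Their median difference was 0.39 in mouse 1, -1.23 in mouse 2 and -0.65 in mouse 3.

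Mybpc1, the slow isoform of myosin-binding protein C, was the exception among them. It stood at 5.82, 11.7 and 11.6 CPM in WT glands and at 28.2, 59.7 and 2.67 CPM in Adamts18-/- glands. As with Myh1 and Myh2, the Adamts18-/- glands of mice 1 and 2 were the highest and that of mouse 3 the lowest of all. The log2 fold change was 1.10 (SE 1.10, edgeR unadjusted p = 0.367).

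Set per kilobase of transcript, fast genes exceeded their slow or shared partners in all 6 glands for each of 8 pairs. Mylpf was 44.9 to 1487 times as high as Myl2, Tnni2 42.0 to 2572 times as high as Tnni1, Tnnt3 19.4 to 1606 times as high as Tnnt1, Tnnc2 11.5 to 553 times as high as Tnnc1 and Myl1 86.6 to 1042 times as high as Myl3. The ratio of Mybpc2 to Mybpc1 was 2.17 to 33.1, that of Casq1 to Casq2, the calsequestrin of slow and heart muscle, 3.82 to 106, and that of Actn3 to Actn2 14.2 to 269. In each of the 8 pairs the lowest ratio belonged to the WT gland of mouse 1 or of mouse 2.

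**Figure D4:**
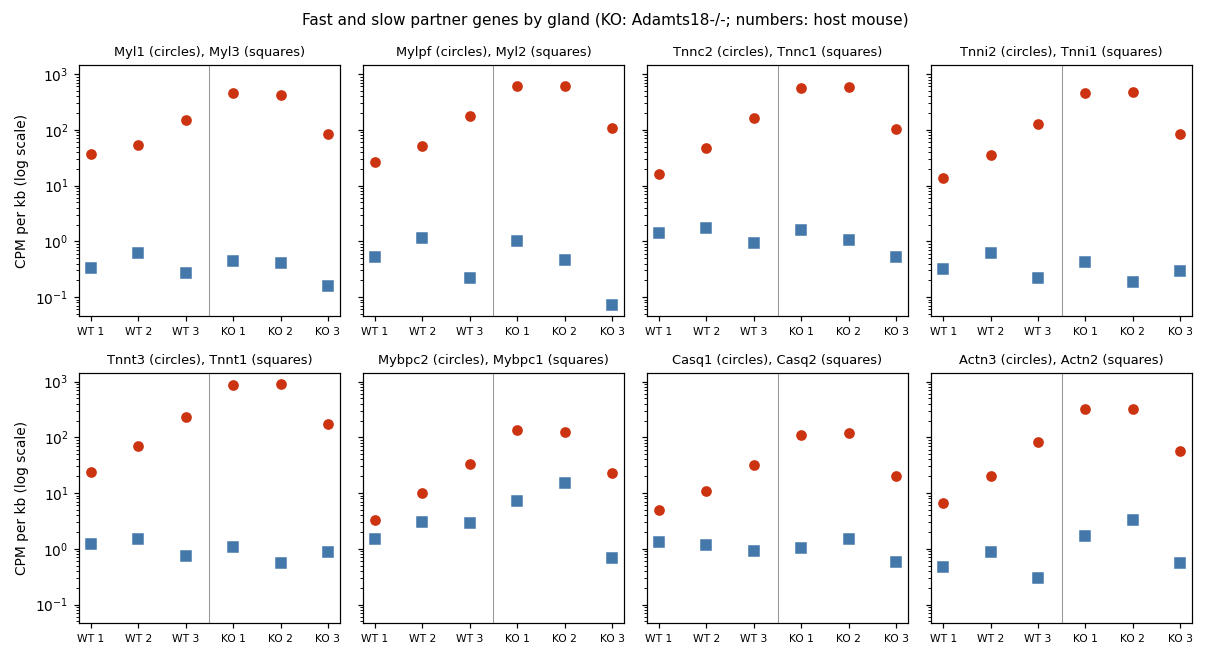
CPM per kilobase of transcript (log axis) of 8 fast genes (circles) and their slow or shared partners (squares) in each gland. The fast gene lies above its partner in all 48 comparisons, and for Mybpc2 and Mybpc1 in the WT gland of mouse 1 the ratio is 2.17.

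Among the sarcomere and Z-disc genes shared by fibre types, Acta1, the skeletal muscle actin of the thin filament, was at 64.8, 166 and 557 CPM in WT glands and at 2017, 2089 and 343 CPM in Adamts18-/- glands. Ttn, the giant spring protein titin, was at 29.1, 92.7 and 249 CPM in WT glands and at 897, 1037 and 184 CPM in Adamts18-/- glands. Both followed Myh4, as did Neb, Tcap, Myoz1, Myot and Xirp2, which were lower in the Adamts18-/- gland of mouse 3 and higher in those of mice 1 and 2.

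Actn2, the alpha-actinin of all striated fibres, was among the 4 genes that rose. It was at 1.40, 2.69 and 0.906 CPM in WT glands and at 5.09, 10.02 and 1.64 CPM in Adamts18-/- glands. The Adamts18-/- gland was higher in 3 of 3 mice although the groups overlapped, and the log2 fold change was 1.56 (SE 0.27, edgeR unadjusted p = 0.00267, adjusted p = 0.987). Csrp3, the muscle LIM protein of the Z-disc, was at 0.201, 0.310 and 0 CPM in WT glands and at 2.31, 1.25 and 0.0163 CPM in Adamts18-/- glands. In mouse 3 these values stand for 0 counts and 1 count, so the direction in that host rests on a single read. The log2 fold change of Csrp3 was 2.76 (SE 0.45, edgeR unadjusted p = 0.0022).

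The excitation-contraction genes turn the electrical signal of the fibre into calcium release. Cacng1, a subunit of the voltage sensor, was at 0.645, 0.734 and 2.61 CPM in WT glands and at 9.96, 9.31 and 2.54 CPM in Adamts18-/- glands. The glands of mouse 3 were nearly level, and the log2 fold change was 2.60 (SE 0.97, edgeR unadjusted p = 0.0473). Ryr1, the calcium release channel, was at 13.1, 28.6 and 93.4 CPM in WT glands and at 324, 337 and 66.6 CPM in Adamts18-/- glands. Cacna1s and Trdn were likewise higher in the Adamts18-/- glands of mice 1 and 2 and lower in that of mouse 3.

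In muscle metabolism, Ckm, the creatine kinase that buffers ATP, was at 30.3, 85.8 and 317 CPM in WT glands and at 1267, 1227 and 226 CPM in Adamts18-/- glands. Its ratio to Myh4 ranged over 1.26-fold, from 25.5 to 32.0 reads per 100 Myh4 reads. Pygm, Eno3 and Ampd1, which serve glycogen breakdown, glycolysis and purine turnover, had the same direction in each mouse. Mb was at 3.23, 5.32 and 3.06 CPM in WT glands and at 11.7, 13.3 and 2.38 CPM in Adamts18-/- glands, with a log2 fold change of 0.98 (SE 0.47, edgeR unadjusted p = 0.0958).

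The myogenic transcription factors, which direct muscle precursors and fibres, were read at low counts. Myod1 had 3, 3 and 7 counts in WT glands and 16, 31 and 15 counts in Adamts18-/- glands. The Adamts18-/- glands were above all WT glands, and the log2 fold change was 2.27 (SE 0.56, edgeR unadjusted p = 0.0109, adjusted p = 0.987). Myf6, which mature fibres express, was at 0.272, 0.522 and 1.19 CPM in WT glands and at 3.77, 5.26 and 0.862 CPM in Adamts18-/- glands. Myog had between 1 and 17 counts and Pax7, the marker of satellite cells, between 1 and 12.

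The order of the 6 glands was shared by many of the 44 genes. In 20 of them it ran, from high to low, Adamts18-/- gland of mouse 2, Adamts18-/- gland of mouse 1, WT gland of mouse 3, Adamts18-/- gland of mouse 3, WT gland of mouse 2 and WT gland of mouse 1, and in 8 more only the first 2 places were exchanged. Over the 6 glands, 29 of the 42 tested had a Pearson correlation over 0.9 with the summed level of the 44, to which each contributes. Outside the muscle lists, the 10 genes most like that sum were Asb11, Fbxo40, Clcn1, 3425401B19Rik, Mypn, Myo18b, Eef1a2, Hfe2, Plcd4 and Tmem233, with correlations of at least 0.9979. They came from 941 genes outside the 44 whose log2 CPM varied by an SD of at least 1. That count was taken before the other listed muscle genes were set aside. These 6 points share their libraries.

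Another list of 63 other skeletal muscle genes was read in the same fit. Of the 56 tested, 6 were higher and 0 lower at the thresholds of the study, beside the same 1.17% and 1.84% of all genes, and the median log2 fold change was 1.67. In 46 of the 56 the Adamts18-/- gland was higher in mice 1 and 2 and lower in mouse 3, beside 13.1% of all genes tested. The genes that rose were Des, the muscle intermediate filament, Capn3, a muscle protease, Cacnb1, a calcium channel subunit, the acetylcholine receptor subunits Chrna1 and Chrne, and the transcription factor Mef2c. Des was at 36.1, 40.4 and 58.0 CPM in WT glands and at 197, 203 and 62.6 CPM in Adamts18-/- glands (log2 fold change 1.66, SE 0.54, edgeR unadjusted p = 0.0291). Mef2c, which many other cell types also express, was at 55.9, 41.0 and 57.6 CPM in WT glands and at 79.0, 75.5 and 81.2 CPM in Adamts18-/- glands. Its groups did not overlap. With the Adamts18-/- glands higher, that held for 3 of the 56, beside 2.31% of all genes. The log2 fold change of Mef2c was 0.63 (SE 0.10, edgeR unadjusted p = 0.00235). Among the most abundant of the list were Art3, Pfkm, Cmya5 and Des, of which Art3 had a log2 fold change of -0.12 and did not pass the test.

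Marker lists of 10 other tissues and cell types differed far less between the glands of mice 1 and 2, by factors of 0.591 (pan-epithelial) to 1.64 (erythroid). In mouse 3 their factors were 0.627 (Schwann cell) to 1.91 (leukocyte), and the 44 muscle genes lay inside that range at 0.682. The adipocyte list changed by a factor of 0.867, 1.03 and 0.779 in mice 1, 2 and 3, and the fibroblast list by 1.02, 1.35 and 1.18. Of the 8 fibroblast genes, 5, 8 and 3 were higher in the Adamts18-/- gland, and their median log2 difference in mouse 3 was -0.287. The cardiac muscle list summed to 4.62 to 10.04 CPM, with 1 of its 7 genes at 0 in all glands. The summed pan-epithelial list stood at 0.974, 0.591 and 0.687 of the WT gland. In mouse 1, 16 of its 24 genes were higher in the Adamts18-/- gland, with a median log2 difference of 0.053, and in mice 2 and 3 none was. In the fit over all mice, 8 of the 24 passed the thresholds as lower, beside 1.84% of all genes. Of the 13 genes of smooth muscle and myoepithelium, 9 were lower, beside the same 1.84%. The part of these lists in the differences of the muscle genes was not tested.

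**Figure D5:**
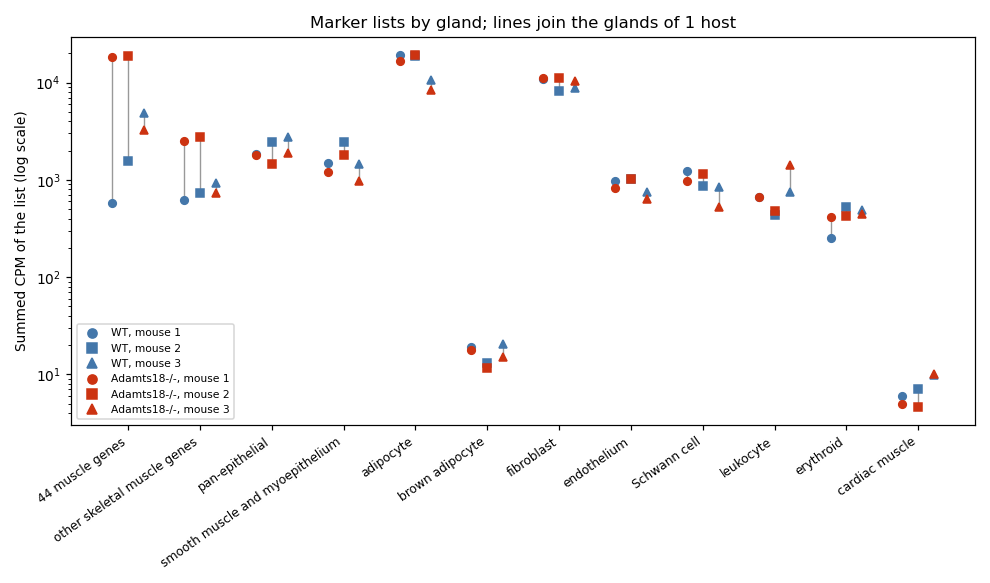
Summed CPM (log axis) of each marker list in each gland; grey lines join the glands of 1 host, colour gives the genotype and shape the mouse. The 44 muscle genes span 575 to 18822 CPM, while the adipocyte list spans 8307 to 19304 CPM and the pan-epithelial list 1454 to 2734 CPM.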

How the data were processed

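The authors deposited raw read counts per gene symbol, 1 column per gland. Per the submitters' processing notes, the tools were bcl2fastq 2.18, TopHat2 2.0.11, featureCounts 1.6.2 and edgeR, with the build mm9; strand settings are not given in the sources used here. The whole table was fitted with edgeR 4.0.16 under R 4.3.3, using filterByExpr, TMM factors and the quasi-likelihood test with mouse as a block, with Benjamini-Hochberg adjustment. The glands of a host shared deviations (correlations of 0.512, 0.505 and 0.639 for mice 1, 2 and 3), and the pairing comes from the labels and the study's text. CPM used TMM factors and log2 CPM a prior count of 2. Transcript lengths came from GENCODE M21 and promoter windows from RefSeq. The edgeR test (with and without the block), limma-voom, DESeq2 and the separate models were also run on simulated data. Scaling to pan-epithelial genes was not run on them, and each simulated effect was the same in every mouse.

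The 44 genes and all lists were chosen with earlier results of these data known. Named were all fibre type genes, genes past the thresholds, the 5 most abundant other muscle genes and the 10 genes most like the summed level; further members were named as examples after their values were seen. A gene among the 5 most abundant is not reported here. Alternatives were RLE, upper quartile and library size scaling, scaling without muscle genes or to pan-epithelial genes, omitting the filter or requiring 10 counts in each library, DESeq2 1.42.0, limma-voom (limma 3.58.1), no block and each mouse left out. A further 3 alternatives were chosen after seeing the data. The separate linear model for each gene was added once the fits scaled to pan-epithelial genes had given their calls.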

Additional observations from a re-analysis of the deposited data

How the results depend on the processing

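RLE, upper quartile and library size scaling and scaling without muscle genes left the 4 higher genes of the 44 in place. The count of higher genes was 12 with no filter (1.43% of all genes), 2 with at least 10 counts in every library (1.11%), 31 in DESeq2 (1.96%) and 13 in limma-voom (1.99%). Without the replicate block it was 25 (1.26% of all genes), against 4 with it. Scaling to pan-epithelial genes gave 35 (11.5% of all genes) and moved the median of all genes by 0.446; edgeR then estimated 1 spread for all genes at a given level, with an infinite prior degree of freedom against 2.68 before. Chosen after seeing the data, limma-voom with that scaling also gave 35 (12.3%), whereas separate linear models for each gene gave 1 (Actn2) with that scaling (2.62%) and 1 with TMM scaling (0.582%). The separate models were added after the 35 had been seen and have 2 residual degrees of freedom per gene. Leaving out a mouse gave 2 (without mouse 2, beside 1.82% of all genes) to 36 (without mouse 3, beside 3.34%). Myl2 became lower without mouse 1 (beside 2.73% of all genes), a range of 0 to 1 for lower genes. Adjusted p under 0.05 was reached by 35 of the 42 tested under pan-epithelial scaling, in edgeR (2.02% of all genes) and in limma-voom (2.53%). It was reached by 2 in DESeq2 (0.409% of all genes). With a mouse left out, 0 to 32 reached it (32 without mouse 3, beside 1.54% of all genes). Fits with a mouse left out had 1 residual degree of freedom per gene. Of the other muscle genes, 6 of the 56 tested were higher as reported (1.17% of all genes). Pan-epithelial scaling gave 47 (11.5% of all genes), and 48 with limma-voom (12.3%). The count was 15 with no filter (1.43%), 33 in DESeq2 (1.96%), 23 in limma-voom (1.99%) and 35 without the replicate block (1.26%). It was 1 without mouse 1 (1.03%), 1 without mouse 2 (1.82%) and 48 without mouse 3 (3.34%). The separate models gave 2 with pan-epithelial scaling (2.62%) and 3 with TMM scaling (0.582%). Slow and developmental genes turned sign: with a mouse left out, log2 fold changes ranged from -2.52 to 0.54 (Myh7), -0.066 to 0.48 (Myh8), -1.38 to 0.073 (Myl2), -0.66 to 0.43 (Tnni1) and -0.78 to 0.020 (Tnnt1), each with the changed sign without mouse 2. Under pan-epithelial scaling they were 0.15 (Myl3), 0.0063 (Tnnc1) and 0.16 (Tnni1), in limma-voom 0.15, 0.019 and 0.15, and in separate models 0.12 for Myl3 and 0.14 for Tnni1. The cause of these differences was not tested. With 3 hosts, genotype on 1 body side and few reads on the slow isoforms, these data limit what the comparison of genotypes can show.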
